A study of Homo sapiens with 6 samples.

Results

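The 5 genes described here, TTN, NEB, RYR2, DMD and ACTN2, encode large proteins of muscle and were chosen by name from 13721 gene names in 1 exon annotation made from U-87 MG, a human glioma line long kept in culture. They were chosen because earlier work on the same annotation had shown that only parts of them are listed, or that their exons run through introns, so these features are a description and carry no test. RNA was poly(A)-selected from 2 groups of 3 libraries. One group had received DMSO, the vehicle (10 ul per 10 ml of medium), for 72 h, and the other 10 uM EPZ015666 for the same time. EPZ015666 inhibits PRMT5, a protein arginine methyltransferase. The annotation covers both groups together in 382567 exon rows, in hg19 coordinates, and has 0 columns of values per library. Levels, depth and the spread between replicates are thus unknown, and the 2 groups could not be compared.

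In striated muscle, titin (TTN) spans the sarcomere from the Z-disc to the M-band as a molecular spring, nebulin (NEB) lies along the thin filament, and alpha-actinin 2 (ACTN2) cross-links thin filaments at the Z-disc. Dystrophin (DMD) ties the cytoskeleton to the membrane complex of dystroglycan and sarcoglycans, and its gene also has internal promoters that give shorter proteins outside muscle, such as Dp71. The ryanodine receptor RYR2 releases calcium from the sarcoplasmic reticulum of heart muscle and is also used in neurons. Of 12 muscle markers examined, 1 had an entry in the annotation, the embryonic myosin MYH3, while the regulators MYOD1, MYF5, MYF6 and MYOG, the actin ACTA1 and the kinase CKM had none. Of 9 glial and mesenchymal markers, 7 had an entry by name, among them VIM, CD44, FN1 and CHI3L1, while GFAP and SOX2 had none. The entry named S100B held no intron of the length found in the reference S100B. The share of all reference genes that had an entry was not computed, so the marker counts have no background.

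Exons were placed on reference transcripts of the GENCODE release 29 annotation by distances within the gene, without using reference positions, which belong to another build. Of the 116 distinct introns listed for the 5 genes, 116 had both edges at splice sites of the reference at 1 shared distance per gene. The share was 92.8% over the 126742 introns of all 10688 genes that could be placed in this way. The reference transcript with the most exons served for counts of introns. Exons are numbered along the same transcript, except that DMD exons follow the full-length transcript of 79 exons (DMD-203) and ACTN2 exons the transcript of 21 exons (ACTN2-201).

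The reference sequences below are those on which the description of titin, nebulin and dystrophin turns. The first set holds the 3 titin exons that a listed intron leaves out. Each is 138 bases long, and capitals mark the 68 bases that are identical in all 3.

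TTN exon 11: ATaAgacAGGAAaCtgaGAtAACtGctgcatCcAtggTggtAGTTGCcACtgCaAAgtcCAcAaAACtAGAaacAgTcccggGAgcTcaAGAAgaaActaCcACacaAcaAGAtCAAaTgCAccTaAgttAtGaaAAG
TTN exon 12: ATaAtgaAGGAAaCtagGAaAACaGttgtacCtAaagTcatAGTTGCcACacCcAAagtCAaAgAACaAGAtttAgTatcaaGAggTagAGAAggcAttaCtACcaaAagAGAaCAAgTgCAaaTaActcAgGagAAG
TTN exon 13: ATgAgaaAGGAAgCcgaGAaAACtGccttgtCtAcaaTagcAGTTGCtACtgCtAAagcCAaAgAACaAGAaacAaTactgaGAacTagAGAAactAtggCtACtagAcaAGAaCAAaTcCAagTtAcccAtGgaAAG

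The second set holds 3 near-identical nebulin exons that lie outside the listed part of the gene, and the only nebulin exon that is listed on its own. The capital letter in the first 3 marks the 1 base at which they differ.

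NEB exon 84: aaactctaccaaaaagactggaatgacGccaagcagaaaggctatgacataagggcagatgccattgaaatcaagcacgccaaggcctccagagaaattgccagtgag
NEB exon 92: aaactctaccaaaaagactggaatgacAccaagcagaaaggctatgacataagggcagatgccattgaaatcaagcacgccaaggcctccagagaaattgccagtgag
NEB exon 100: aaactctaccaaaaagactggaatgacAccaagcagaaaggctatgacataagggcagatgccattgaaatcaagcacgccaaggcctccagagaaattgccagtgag
NEB exon 112: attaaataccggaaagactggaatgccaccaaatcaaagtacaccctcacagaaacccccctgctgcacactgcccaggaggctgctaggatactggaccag

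The third set holds 2 short dystrophin exons that are used alternatively in the reference, 1 of which is listed and 1 left out. In the 2 junctions, lower case is the end of exon 77 and capitals are the start of the exon that follows.

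DMD exon 71, listed: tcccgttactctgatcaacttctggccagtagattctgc
DMD exon 78, left out: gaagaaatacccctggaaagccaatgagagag
DMD exon 77 to exon 79, listed: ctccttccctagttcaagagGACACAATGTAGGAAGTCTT
DMD exon 77 to exon 78, full-length reference: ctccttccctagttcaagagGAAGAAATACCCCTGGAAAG

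The listed part differed widely among the 5 genes. NEB (chromosome 2, 152374832 to 152426906, minus strand) was listed with 5 introns, which is 2.75% of the 182 introns of its reference transcript (95% Wilson interval 1.18 to 6.27, which covers counting error only). TTN (chromosome 2, 179390717 to 179682407, minus strand) was listed with 24 introns. Of its 362 reference introns 22 were among them (6.08%, interval 4.05 to 9.03). DMD (chromosome X, 31137346 to 31496491, minus strand) had 13 introns, 12 of them among 80 reference introns (15%, interval 8.79 to 24.4). ACTN2 (chromosome 1, 236882194 to 236923089, plus strand) had 9 of 22 (40.9%, interval 23.3 to 61.3), and RYR2 (chromosome 1, 237655106 to 237997288, plus strand) had 65 of 104 (62.5%, interval 52.9 to 71.2). In this order the intervals of every pair of neighbours overlap. The introns of a gene are not independent draws, so this overlap is no test of whether the genes differ.

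Over the 11425 matched genes with introns the median share was 83.3% (quartiles 66.7 and 94.4). It was 94.3% (quartiles 82.4 and 96.5) over the 132 genes with at least 50 reference introns, which include TTN, NEB, RYR2 and DMD. The 5 genes therefore all lay below the lower quartile of the set they belong to. Since they were picked for partial structures, this position is set by the choice.

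**Figure D1:**
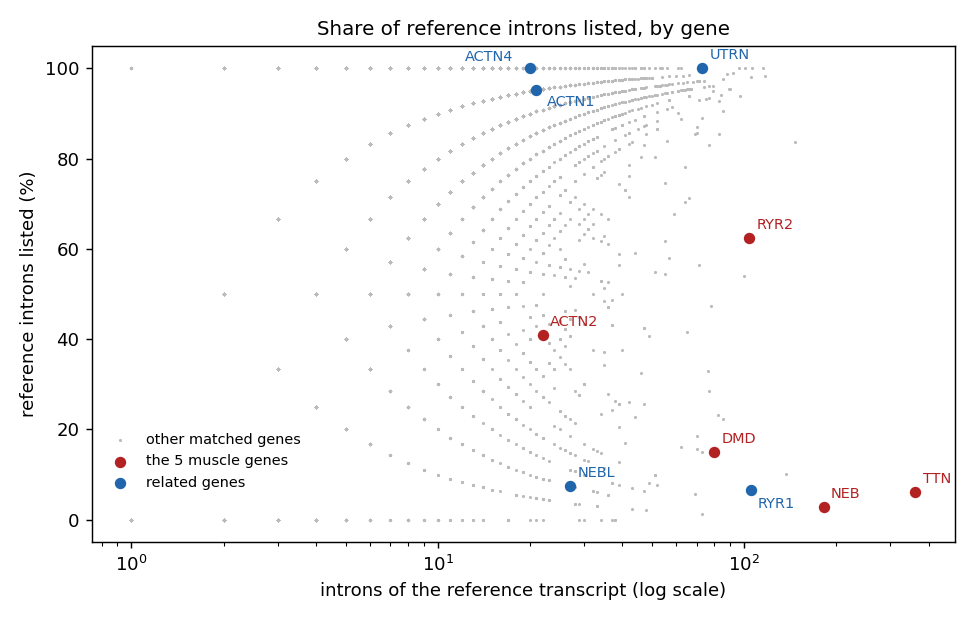
Share of reference introns with a listed intron of the same length (vertical axis, percent) against the number of introns of the reference transcript (horizontal axis, log scale), 1 point per matched gene, with the 5 muscle genes in red and related genes in blue. NEB and TTN lie near the bottom at 2.75% and 6.08%, while UTRN and ACTN4 lie at 100%.

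Reference exons that were not listed on their own were mostly of 2 kinds. In NEB and DMD most lay beyond the listed ends, 134 of 183 exons (73.2%) and 58 of 79 (73.4%). In TTN none did, and 349 of 363 exons (96.1%) lay inside longer listed exons. RYR2 was the most evenly divided, with 50 of 105 exons listed on their own, 38 inside longer exons and 17 beyond the listed ends. ACTN2 had 6 of 21 on their own, 11 inside longer exons and 4 beyond the ends.

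**Figure D2:**
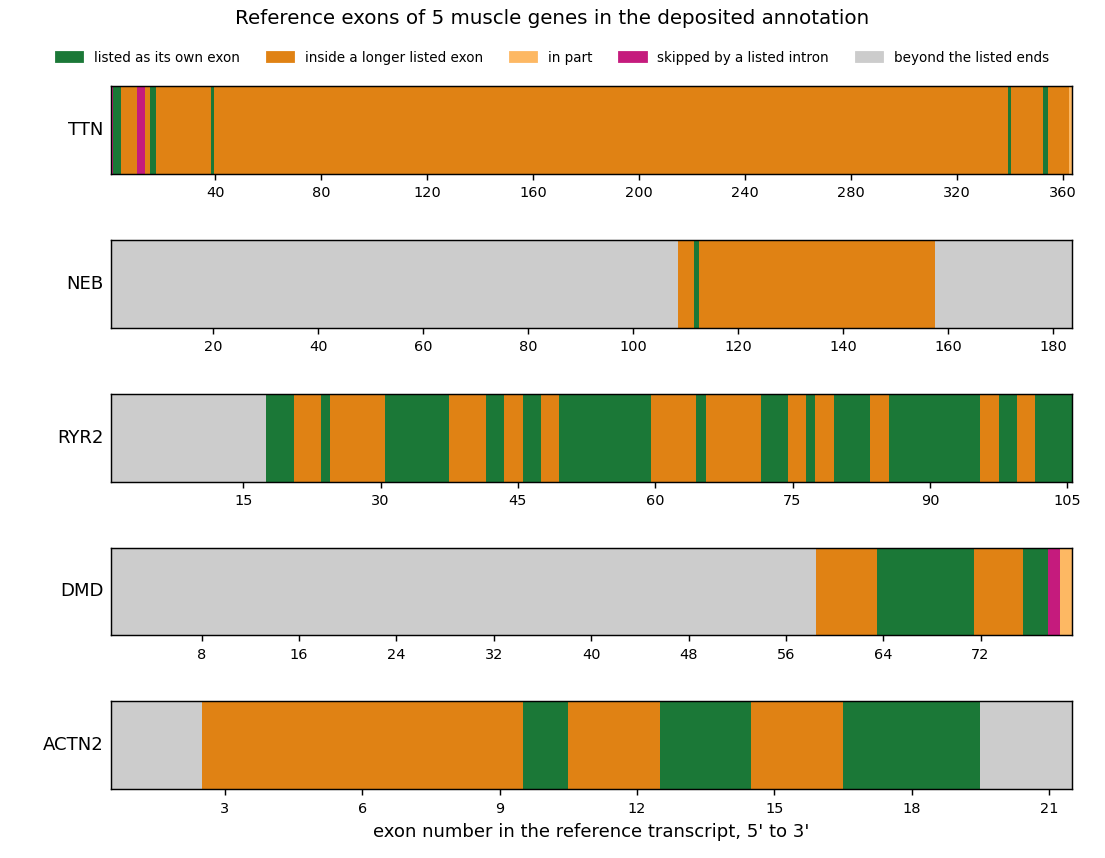
Every exon of the numbered reference transcript of each gene, from 5' to 3' along the horizontal axis (exon number), coloured by how the annotation lists it. TTN is almost wholly inside longer exons (349 of 363), NEB is listed only from exon 109 to exon 157, and RYR2 alternates between own exons and longer ones from exon 18 on.

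Titin was listed from end to end. Its rows gave 2 distinct isoforms, and both began with the same 155-base exon (chromosome 2, 179682253 to 179682407). That exon lies 10103 bases upstream of the start of the longest titin transcript. In the reference it is exon 3 of the 5 exons of TTN-205, a transcript that starts a further 13122 bases upstream, and it holds 0 coding bases. It was joined by an intron of 12870 bases to exon 2. Exon 1 of the usual titin transcript, 212 bases long, was thereby skipped.

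Exons 2, 3 and 4, which encode the end of titin that is anchored in the Z-disc, were then listed on their own at 104, 204 and 288 bases. The next 2 listed exons, of 4989 and 2480 bases, held reference exons 5 to 7 and 8 to 10 with the introns between them. An intron of 5930 bases followed, from the donor of exon 10 to the acceptor of exon 14. Its length was found in no reference titin transcript, and it was the 1 such intron among the 24. It leaves out exons 11, 12 and 13, printed above. Titin's Z-disc end is known to hold short repeats that bind alpha-actinin and vary in number by alternative splicing. The 3 skipped exons are equal in length and identical at 63.8% to 65.2% of bases in pairs. From exon 14 to exon 38 the listing held exons 16 and 17 alone (282 and 66 bases) and 5 longer exons. These held exons 14 and 15 (522 bases), 18 to 22 (3065), 23 to 28 (4107), 29 to 32 (1741) and 33 to 38 (4697).

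Downstream, 1 listed exon took up most of the gene. It ran for 210277 bases (chromosome 2, 179422375 to 179632651), from the acceptor of exon 40 to the donor of exon 328, and so held 289 of the 363 reference exons. Much of the I-band spring region of titin lies within this stretch, which is not confined to it. The last exon of TTN-204, a short titin transcript of 46 exons that ends early, also lay inside it. So did all 29 reference exons that have a near-identical copy in the gene (at least 98% of bases identical), which lie between exons 172 and 204. Exon 39, just upstream, was listed on its own at 142 bases.

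After the 210277-base exon, titin was listed with a 10149-base exon holding exons 329 to 339, exon 340 alone (303 bases), and exons of 4244 and 3182 bases holding exons 341 to 348 and 349 to 352. Exons 353 and 354 were listed alone at 306 and 300 bases. The last listed exons held 355 and 356 (980 bases), 357 and 358 (6335 bases), 359 and 360 (1589 bases), and a final exon of 2438 bases from the acceptor of exon 361 to 1 base short of the reference end. The second isoform ended early. It used the acceptor of exon 349, took in the 300 bases of that exon, and ran on for 465 bases into intron 349, where it stopped (chromosome 2, 179406526 to 179407290). TTN was the only one of the 5 genes with 2 final exons. Over all genes with introns, 22.5% had 2 or more.

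Nebulin was listed as 1 short middle piece. The 6 exons cover 52075 bases, from the acceptor of exon 109 to the donor of exon 157, which is 20.9% of the length of the reference transcript. The first exon, of 1775 bases (chromosome 2, 152425132 to 152426906), held exons 109 to 111. Exon 112 followed on its own at 102 bases. Exons of 14351, 12056, 9010 and 12784 bases then held exons 113 to 126, 127 to 136, 137 to 145 and 146 to 157. The 5 introns between them were 200, 137, 325, 645 and 690 bases long, and 43 other reference introns lay inside the exons.

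The listed nebulin started 3 exons after a repeated block. Exons 82 to 105 of the reference form 3 copies of a unit of 8 exons, and all 24 had a near-identical copy, 19 of them without a single differing base. For example, exons 83, 91 and 99 did not differ at any base and exons 84, 92 and 100, printed above, differed at 1. These 24 exons cover 29339 bases and all lay beyond the listed 5' end. At the other end, the annotation stopped 32979 bases before the end of the reference nebulin transcript. The neighbouring gene RIF1, listed on the opposite strand (chromosome 2, 152266401 to 152354728), runs 12876 bases past that reference end and stops 20104 bases from the listed nebulin. Whether the repeats or RIF1 bear on where nebulin is listed was not tested.

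ACTN2 was listed without its first 2 and last 2 exons. It began with an exon of 7127 bases (chromosome 1, 236882194 to 236889320) that held exons 3 to 5, followed by one of 9537 bases with exons 6 to 9. Exons 10, 13, 14, 17, 18 and 19 were listed on their own, and exons of 1881 and 2612 bases held exons 11 and 12 and exons 15 and 16. The annotation ended at the donor of exon 19, a 66-base exon (chromosome 1, 236923024 to 236923089) whose row was written a second time. This last listed exon is an internal coding exon of the reference: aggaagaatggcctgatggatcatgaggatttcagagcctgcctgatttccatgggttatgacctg. Exons 20 and 21, which hold the coding end of the gene and its 3' UTR, lay beyond the listing.

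Dystrophin was listed from exon 59 to its 3' end. The first exon alone was 217420 bases long (chromosome X, 31279072 to 31496491) and held exons 59 to 63 with introns 59, 60, 61 and 62 of 33478, 95846, 24897 and 62581 bases. The 58 exons upstream, which encode the actin-binding domain and most of the spectrin-like rod of the full-length protein, lay beyond the listing, and 1732938 bases of the gene up to the start of the reference transcript with the most exons went with them. Exons 64 to 71 were each listed on their own. They lie in the part of the gene that encodes the cysteine-rich domain, which binds dystroglycan, and the beginning of the C-terminal domain. Exons of 1257 and 22327 bases then held exons 72 and 73 and exons 74 and 75, and exons 76 and 77 were listed on their own.

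The listed start of dystrophin was at none of its reference starts. It lay at the acceptor of exon 59, an internal exon. Of the coding reference transcripts that run to the same 3' end, 4 start inside the 217420-base exon, between 5902 and 5997 bases before its 3' edge. These short transcripts of 13, 16, 17 and 18 exons begin in intron 62, the place of the Dp71 promoter. Their first intron, 5793 bases long, was not among the listed introns. The other 10 such transcripts start upstream of the listed part. The nearest of them, DMD-202 of 25 exons, starts 29924 bases upstream of it. Which start was used was not tested.

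At the dystrophin 3' end, the last intron of 12171 bases ran from exon 77 to exon 79 and left out exon 78, a 32-base exon. The same intron was found in 6 reference transcripts, while 8 contained exon 78. Because the length of exon 78 is not a multiple of the codon length, the reading frame of exon 79 differs between the 2 forms. The reference marks 9 coding bases before the stop codon in exon 79 when exon 78 is present and 95 when it is left out. Exon 71, of 39 bases, which 5 reference transcripts skip, was listed. Only 1 distinct dystrophin isoform was listed, so neither alternative form of either exon appears beside it.

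RYR2 was the most completely listed of the 5. Its single isoform ran from exon 18 to the last base of the reference transcript in 66 exons, over 342183 bases. It began exactly at the acceptor of exon 18 (chromosome 1, 237655106 to 237655224), a 119-base coding exon of the reference: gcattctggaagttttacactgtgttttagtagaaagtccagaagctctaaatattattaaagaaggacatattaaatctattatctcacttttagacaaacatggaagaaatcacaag. Exons 1 to 17, with 449601 bases of the gene and introns of up to 227927 bases, lay upstream of the listing. Those exons encode the N-terminal end of the channel, which lies in its large cytoplasmic part.

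From exon 18 on, RYR2 switched between exons listed alone and longer ones. The longest stretches of single exons were exons 50 to 59 and exons 86 to 95, 10 in each, and exons 31 to 37, 7 in all. The last 4 exons, 102 to 105, at the end that encodes the membrane pore, were also listed singly. Between these stretches lay 16 longer exons, 13 of which held 2 reference exons and 1 intron. The longest, at 24295 bases (chromosome 1, 237838031 to 237862325), held exons 60 to 64. A group of 3 in a row, of 18164, 16232 and 20857 bases, held exons 25 and 26, 27 and 28, and 29 and 30, with introns of 17920, 15875 and 20473 bases. The shortest longer exon, of 927 bases, held exons 75 and 76.

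**Figure D3:**
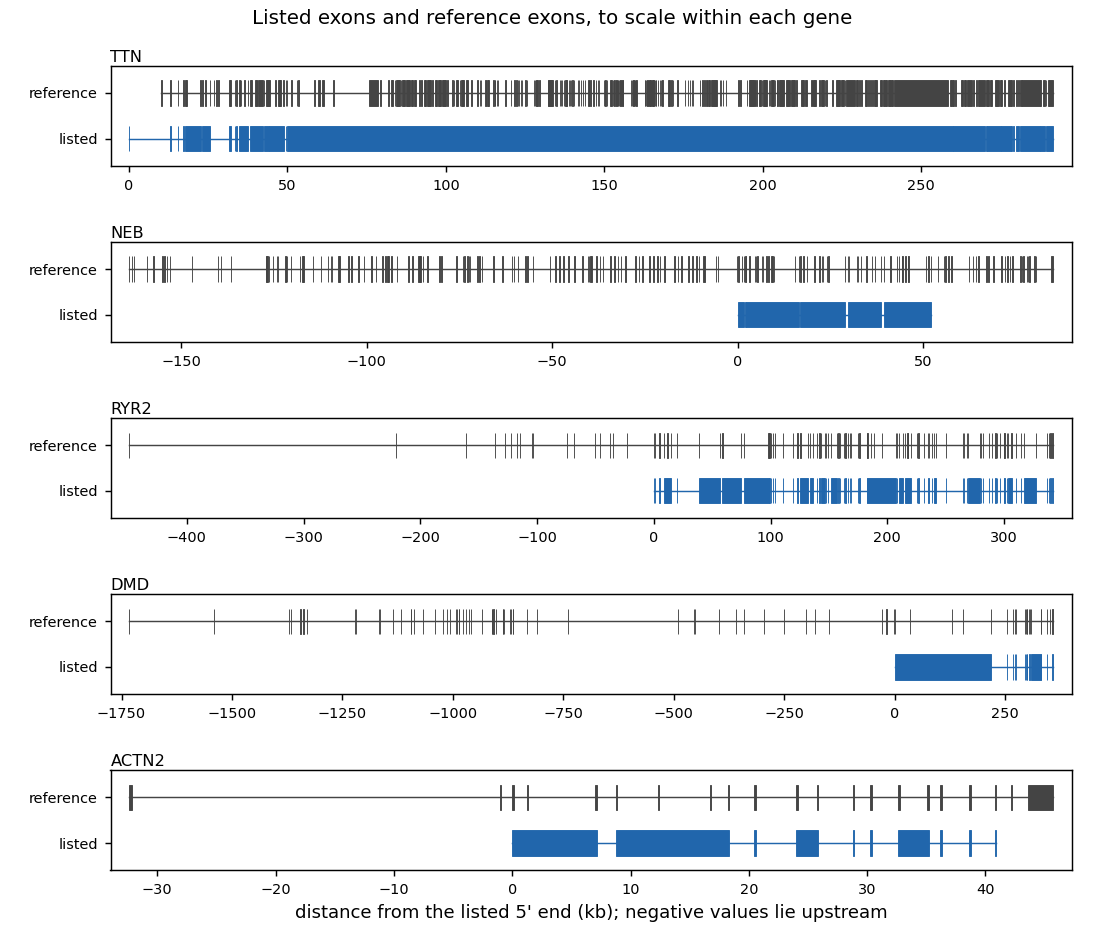
Exons of the numbered reference transcript (grey) and of the listed isoform with the most introns (blue), to scale within each gene, against distance from the listed 5' end in kilobases. The blue blocks are long exons that run through introns, such as the 210277-base exon of TTN and the 217420-base first exon of DMD, and the grey exons at negative distances lie upstream of the listed part.

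All 5 genes began at the acceptor of an exon that is internal in the reference and at no reference start. Over all placed genes 9.21% did so, and over those with at least 50 reference introns 20.5%. In TTN the acceptor is that of exon 3 of TTN-205, and in NEB, ACTN2, DMD and RYR2 it belongs to an exon of the numbered transcript. NEB and ACTN2 also ended at the donor of an internal exon, against 21.6% of all placed genes and 32.3% of those with at least 50 reference introns. None of the 5 had more than 1 start, and over all genes with introns 0.281% had 2 or more. The starts are the 5' edges of listed rows, and whether they are transcript starts in the cells was not tested. Nothing is read from these shares about the 5 genes, which were chosen for being partial.

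Joined internal exons, those as long as a run of 2 or more reference exons with the introns between them, occurred in all 5 genes, against 10.2% of all matched genes with at least 2 introns and 47.7% of those with at least 50 reference introns. They numbered 16 of 64 internal exons in RYR2, 14 of 23 in TTN, 3 of 4 in NEB, 3 of 8 in ACTN2 and 2 of 12 in DMD. The first exons of NEB, ACTN2 and DMD and the final exons of NEB and TTN also held several reference exons but are not internal. The presence of joined exons helped to choose the genes. Of the 124953 distinct internal exons of the whole annotation, 903 (0.723%) were at least 10000 bases long, and of the 111 in the 5 genes 10 were, with 5 in RYR2, 2 each in TTN and NEB, 1 in DMD and 0 in ACTN2. The median internal exon of the annotation was 123 bases long.

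Much of what is listed as exon was intron in the reference. In DMD 97.9% of the 244899 listed exon bases lay outside the exons of the reference transcript with the most exons. The share was 90.1% in RYR2 (of 147030 bases), 89.5% in ACTN2 (of 22031), 88.4% in NEB (of 50078) and 58.7% in TTN (of 262945). Over the 127 placed genes with at least 50 reference introns the median was 24.4% (quartiles 3.41 and 64.3), and over all 10688 placed genes it was 11% (quartiles 0.482 and 51.1). TTN lies within the quartiles of the large genes, and NEB, RYR2 and DMD lie above them. In TTN 108597 of the 109224 reference exon bases were covered, in NEB 5787 of 26307.

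The introns inside listed exons were not of one size class across the 5 genes. In DMD the 6 such introns had a median of 29187.5 bases, against 2788 for the 12 spliced ones. In RYR2 the medians were 3202.5 bases (22 introns) and 1959 (65 introns), in NEB 655 (43) and 325 (5), and in ACTN2 2294 (7) and 2091 (9). In TTN the order was the opposite, with 152 bases for the 335 introns inside exons and 218.5 for the 22 spliced ones. The ranges overlapped in every gene. In RYR2, for example, introns inside exons measured 381 to 20473 bases and spliced ones 511 to 18635. These medians describe introns of single genes and were not tested.

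**Figure D4:**
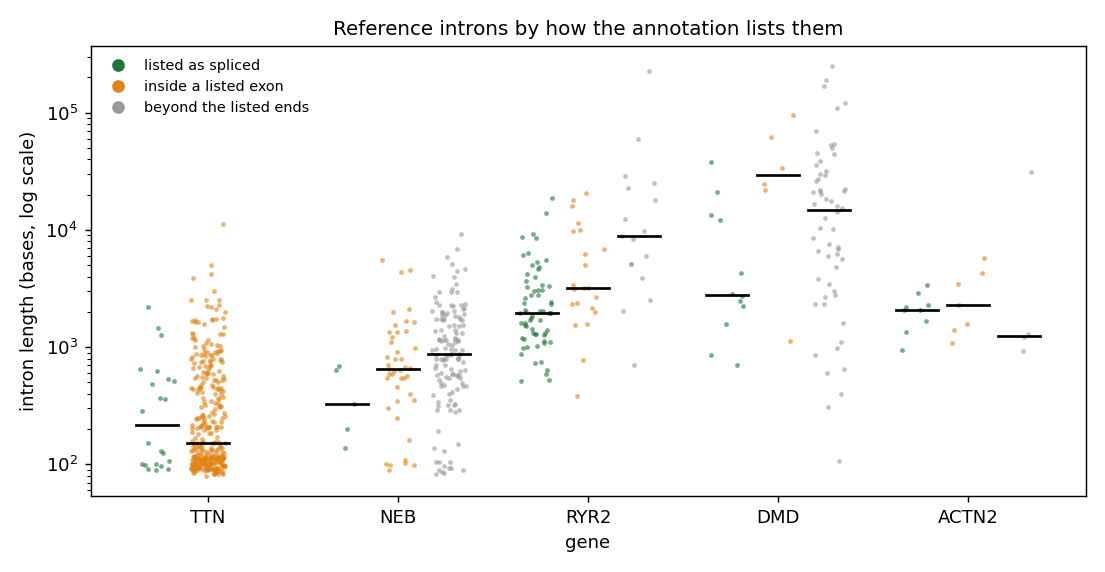
Length of each reference intron (vertical axis, bases, log scale) in the 5 genes, by whether it is listed as spliced, lies inside a listed exon or lies beyond the listed ends, with 1 point per intron and a black line at the median. Introns inside exons have the higher median in DMD, RYR2, NEB and ACTN2 and the lower one in TTN, and the 2 kinds overlap in length in every gene.

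Relatives of the 5 genes were listed in different degrees. UTRN, the dystrophin-like utrophin, had 73 of 73 reference introns, where DMD had 12 of 80. The alpha-actinins of non-muscle cells, ACTN1 and ACTN4, had 20 of 21 and 20 of 20, where ACTN2 had 9 of 22. The skeletal muscle alpha-actinin ACTN3 had no entry. NEBL, which encodes the shorter nebulin-like nebulette, had 2 of 27 (7.41%), with 2 joined exons. Of its 5 listed introns, 4 equalled introns of some NEBL reference transcript at 1 shared distance. Unlike NEB, it was not among the genes that started at an internal acceptor and at no reference start. RYR1, the skeletal muscle ryanodine receptor, had 7 of 105 (6.67%), with 3 joined exons. Like RYR2, RYR1 started at an internal acceptor. RYR3 had no entry. The calcium channels of the inositol trisphosphate receptor family, which many cell types use, had 55 of 61 (ITPR1), 53 of 56 (ITPR2) and 55 of 58 (ITPR3). ITPR3 also started at an internal acceptor, and ITPR1 and ITPR2 had 1 joined exon each.

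Other genes of muscle structure were also mixed. Of 18 genes of the dystrophin complex 15 had an entry, with a median of 60.0% of reference introns listed (range 15 to 100), and 3 of the 15 placed ones started at an internal acceptor, against 9.21% of all placed genes: DMD, SGCD and NOS1. Of 18 Z-disc genes and titin partners 14 had an entry (median 61.6%), among them FLNC with 46 of 47 reference introns and MYPN with 19 of 23. Such a start was found in 3 of its 12 placed genes: TTN, ACTN2 and CSRP3. The thin filament list had 13 of 21 (median 55.6%), and 6 of its 12 placed genes started at an internal acceptor: NEB, the actin gene ACTC1 and the troponin genes TNNT1, TNNI1, TNNC1 and TNNC2. The thick filament and M-band list had 4 of 17. Of these, MYH3 had 36 of 40 reference introns with 2 joined exons. MYOM3, an M-band protein gene, had 17 of 36 with 7 joined exons. The other 2, MYL1 and MYOM2, had 0 of 6 and 2 of 36 by intron length. Neither could be placed by a shared distance, so these entries are not shown to follow the reference gene. Of the 2 placed genes of this list, MYOM3 started at an internal acceptor. Of 20 genes of calcium release and excitation 15 had an entry (median 86.9%), and 4 of the 14 placed ones started at an internal acceptor: RYR1, RYR2, JPH2 and ITPR3. The median over all matched genes, given above, was 83.3%. The lists overlap with the 5 genes, were chosen with results of these data known, and were not tested. Their counts of genes with an entry have no background share either.

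Rows of other genes did not overlap the 5 listed spans on either strand (0 for each gene). The reference has 9 genes on the strand opposite to listed TTN, among them TTN-AS1, 2 opposite DMD and 1 opposite RYR2. None of these 12 names had an entry. The share of such reference names with an entry was not computed, so their absence says nothing about antisense RNA. The labels do not state whether strand was kept, and without it reads of a gene and of its antisense partner cannot be told apart.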

How the data were processed

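Poly(A)-selected RNA of U-87 MG cells (3 DMSO and 3 EPZ015666 libraries) underlies 1 annotation of 9 columns for both groups. Its measurements are exon starts and ends, deposited by the authors as genome positions. Per the submitters' processing notes, the tools were RSEM, bedtools 2.20.1, DESeq 1.10.1, Bowtie 1.0.1 and STAR 2.4.1d and the builds hg19 and GRCh37, with no role stated. By its title the annotation holds DI, an abbreviation that no source used here spells out, and consensus coding isoforms. No source used here gives the rule for calling exons, and depth is unknown. Whether the exons that run through introns belong to the DI part was not tested.

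Consecutive rows of 1 parent running 5' to 3' were taken as an isoform (31659 in all). Rows with end before start (76) were dropped, and of 2 overlapping consecutive exons (10093 cases) the later was kept. Genes were matched to GENCODE release 29 (GRCh38) by name, chromosome and strand. A gene was placed where at least 50% of its listed introns equalled reference introns in length at 1 common distance. No positions were converted, and no coordinate of the reference is printed. Shares of genes by start or end use the isoform with the most introns, and joined exons were counted over all isoforms. Exon sequences are GENCODE transcript sequences.

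The genes, lists and reference choices were made with earlier results of these data known. Named were the 5 genes, their relatives and up to 4 members per list with most introns. Markers came from lists. Other names (members behind small counts, and RIF1) were chosen after their values were seen. Expression tests were not run, since the file has no values per library. The placement was tested on simulated data. Alternatives were other overlap, length and transcript choices. Python 3.11.15, numpy 2.4.6, scipy 1.17.1 and matplotlib 3.10.9 were used.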

Additional observations from a re-analysis of the deposited data

How the results depend on the processing

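Introns listed, shares of reference introns, joined exons, starts and final exons of the 5 genes were recomputed under 62 alternatives. All 62 stayed within 1.5 times a count or within the interval of a share, and 54 equalled the reported value. Some of these could not differ. NEB, RYR2, DMD and ACTN2 have 1 distinct isoform each. This fixes their starts, their final exons and the count from the isoform with the most introns. Counted against the introns of all reference transcripts, shares were 5.90% (TTN), 2.53% (NEB), 56.5% (RYR2), 12.3% (DMD) and 34.6% (ACTN2). Against the transcripts used for exon numbers, a choice made after seeing the data, they were 15.4% (DMD) and 45.0% (ACTN2). With both neighbouring introns required, TTN had 12 joined exons. Placement by distance, also chosen after seeing the data, left the 5 shares as they were. Keeping the earlier of overlapping exons changed no intron count of the 5 genes, and swapping inverted rows changed none either. In NEB, RYR2, DMD and ACTN2 these settings could not change anything. Their rows hold no inverted row, and no overlapping exons other than the repeated last rows of NEB and ACTN2. No paired analysis was possible because values per library are not in the annotation analysed here. Exons too long or too short for lack of reads cannot be recognised without depth.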

Other observations

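The isoforms of TTN, RYR2 and DMD that reach the gene's 3' end were each written more than once with the same rows. Of the genes with introns, 61.0% had some isoform, whatever its end, written more than once in this way. In NEB and ACTN2 the last exon row was repeated.

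The listed 3' ends of TTN and DMD, both on the minus strand, stopped 1 base short of the reference end, and that of RYR2, on the plus strand, met it exactly. The same pattern held across the annotation. Of 5237 placed genes on the minus strand, 2555 (48.8%) had a 3' end 1 base short of the nearest reference end and 527 (10.1%) had one that met it. On the plus strand 2915 of 5451 (53.5%) met it and 42 (0.771%) were 1 base short. The 5' ends showed the mirror image. On the plus strand 2272 (41.7%) began 1 base inside the nearest reference start, and on the minus strand 2182 (41.7%) met it exactly. The lower coordinate of the outermost exon is thus often 1 base higher than in the reference, while the splice edges of the 5 genes met it exactly.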
